A study of Homo sapiens with 4 samples.

Results

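The 10 genes described here, MDM2, GDF15, TP53I3, ZMAT3, RRM2B, FDXR, DDB2, TP53INP1, PPM1D and CCNG1, are established target genes of the transcription factor p53, and were followed in K562 cells before and during treatment with hemin. They were listed by symbol, and each was represented by its transcript probe set, the one with the highest mean where a gene had several. Of the 10 genes, 9 had a named probe set among the 20893 transcript probe sets of the array, 1 probe set each, while FDXR had none and its RNA is not analysed here. K562 is a leukemia line derived from a patient with chronic myeloid leukemia. The samples were K562 cells after 24 h in 50 µM hemin, an oxidized form of heme that drives the line toward the erythroid lineage, and K562 cells at 0 h, without hemin. Each time point had 2 Human Clariom S arrays, labelled as biological replicates, with 1 log2 value per probe set and array. Both time points are the same line in the same medium with serum. Cells grown for 24 h without hemin were not among the samples, so an effect of hemin and 24 h in culture cannot be told apart. How the replicate cultures were kept apart is not stated, and the p-values therefore measure the spread between these arrays, which may be technical.

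p53 is a tetrameric transcription factor that is kept scarce by its own target MDM2, a ubiquitin ligase, and that accumulates after DNA damage or disturbed ribosome production. It binds a pair of half-sites of 10 bases each and turns on genes for growth arrest, DNA repair, nucleotide supply, cell death and its own feedback inhibition. It lowers many cell cycle genes indirectly, through the CDK inhibitor p21, which CDKN1A encodes, and the DREAM repressor complex. Many p53 targets can also be turned on without p53 by other factors, among them the stress factors ATF4 and CHOP.

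The sequences below show matches to the p53 consensus near the starts of the genes. The windows used here ran from 250 bases before to 50 after a start annotated by RefSeq in GRCh38.p14. They covered 8 of the 10 genes, and RRM2B and TP53INP1 were not searched. Pairs of p53 half-sites, 0 or 1 base apart, with the core C and G of both half-sites kept and up to 3 mismatches in all, were found in windows of 4 genes. They are shown in full because they are the p53-like sequences this search found next to these starts. Capitals mark the bases that match the p53 consensus. Each sequence is read 5′ to 3′ on the strand of its gene.
DDB2: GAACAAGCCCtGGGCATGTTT
MDM2: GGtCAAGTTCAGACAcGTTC
FDXR: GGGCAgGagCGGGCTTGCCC
GDF15: AGcCATGCCCGGGCAAGaaC
The DDB2 site (chr11:47214979-47214999, + strand) had 0 mismatches and begins at base 6, counting the later of the annotated starts of the gene as base 1, and a second match overlaps it. The MDM2 site (chr12:68808923-68808942, + strand) had 2 mismatches and begins at base -94 from the upstream one of a pair of neighbouring annotated starts at the internal promoter known as P2. The FDXR site (chr17:74872996-74873015, - strand) and the GDF15 site (chr19:18386186-18386205, + strand) had 3 mismatches each, and the GDF15 site begins at base 29. Such pairs occurred in 2.38% of all 35116 RefSeq promoter windows. A match is a description of letters and not a bound site, and genes without a match in these windows may carry p53 sites elsewhere. Sites with a changed core C or G would be missed by this search, also inside these windows.

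The bases before the start of MDM2 and GDF15, the genes with the largest fitted rises among the 9, are shown next. The MDM2 stretch (chr12:68808767-68809016, + strand) has the p53 match listed above in capitals, and a site missed by the search would stay in lower case.
MDM2: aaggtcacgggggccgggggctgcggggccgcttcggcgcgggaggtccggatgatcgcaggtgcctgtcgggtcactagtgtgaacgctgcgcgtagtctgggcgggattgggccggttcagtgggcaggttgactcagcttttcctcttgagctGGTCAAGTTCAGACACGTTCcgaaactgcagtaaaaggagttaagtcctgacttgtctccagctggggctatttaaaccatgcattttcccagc
GDF15: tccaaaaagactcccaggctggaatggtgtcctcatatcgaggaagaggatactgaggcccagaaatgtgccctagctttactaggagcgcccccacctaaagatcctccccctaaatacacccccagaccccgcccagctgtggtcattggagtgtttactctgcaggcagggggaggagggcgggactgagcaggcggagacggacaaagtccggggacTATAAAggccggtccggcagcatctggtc
In the GDF15 stretch (chr19:18385908-18386157, + strand) the capitals mark the TATA box motif TATAAA, which 11.5% of all windows hold. Searched on both strands, the motif TGANTCA of AP-1 occurred in the MDM2 window, where it overlaps a match to TGACNNNGC, the core of the antioxidant response element. TGANTCA was found in 7.71% and TGACNNNGC in 13.3% of all windows, and of the 8 genes TGACNNNGC also occurred in TP53I3. TGATGNAAN, a core of the element bound by CHOP and ATF4, occurred in none of the 8 genes and in 3.61% of all windows. PPM1D, shown because it alone of the 8 held the cyclic AMP response element TGACGTCA, in capitals, which 1.85% of all windows hold, reads as follows (chr17:60600121-60600150, + strand).
PPM1D: agagagccgagTGACGTCAgcgggggagaa

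The 4 arrays were similar in scale, with median log2 values of 6.10 to 6.24, and the correlation over probe sets (genes, not replicates) was r = 0.982 to 0.988 within a time point and 0.972 to 0.979 between time points. Since an array has no read depth, the precision was limited by the number of arrays and, at low levels, by background. Background was judged from 348 olfactory receptor genes, of which 95% had a mean log2 value under 5.70, here called the dim line, and from 612 negative control probe sets, of which 95% lay under 7.56. All 7 K562 markers with a named probe set, among them GATA1, TFRC and HBE1, lay above both lines in all 4 arrays. Of these 7, limma called 0. At an unadjusted p under 0.05, 1 was higher at 24 h (HBE1) and 2 were lower (GATA1 and LMO2). Their log2 fold changes were 0.91, -1.04 and -2.08. Over all probe sets 6.28% were higher and 6.62% lower at that p. Of 14 measured markers of lymphocytes, monocytes and granulocytes, or stromal, epithelial and endothelial cells, limma called 0, while at an unadjusted p under 0.05 there were 0 higher and 3 lower ones (CD3D, EPCAM and PECAM1), and LYZ, EPCAM and KRT8 lay above both lines in every array. In bulk RNA of a culture, fewer cells that express a gene and less RNA per cell cannot be told apart.

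Of the 9 p53 target genes, 1 rose after 24 h of hemin and 0 fell. The gene that rose was GDF15, which encodes a stress-induced cytokine of the TGF-beta superfamily. Over all 20893 probe sets, 0.943% were called at an adjusted p under 0.05 in limma, 0.823% higher and 0.12% lower, and 1 call among 9 genes can be read no further than that single gene. The median log2 fold change of the 9 genes was -0.18, against -0.06 over all probe sets. At 24 h both arrays lay above both arrays at 0 h in 2 of the 9 genes and below them in 3, and the groups overlapped in 4. Over all probe sets the arrays of the time points did not overlap for 43.6%, with 18.8% higher and 24.9% lower at 24 h.

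GDF15 had log2 values of 8.43 and 7.65 at 24 h, against 5.40 and 5.88 at 0 h. Both arrays at 24 h were far above both at 0 h, where 1 array lay below the dim line and both below the negative control level. The log2 fold change was 2.40 (standard error 0.37, 95% confidence interval 1.57 to 3.23, adjusted p = 0.019 from limma), which ranked 95th by absolute change among all probe sets. Since its level at 0 h was not fully measured, the change is given as at least 4.75-fold counting values under the dim line as equal to it. Against the negative control level the bound was 1.39-fold. The call was lost without either of the arrays at 0 h, where the adjusted p was 0.15 (replicate 1 left out) and 0.11 (replicate 2 left out), while the log2 fold change stayed between 2.01 and 2.79 over the 4 arrays left out in turn. The genes nearest to GDF15 in pattern over the 4 arrays, by the root mean square difference of centred log2 values among 9980 named genes above the dim line, were SULT1A1, at 0.134, B4GALNT1, at 0.157, and PHTF1, at 0.167. PHTF1, above both lines in every array, had a log2 fold change of 2.10. At 0 h SULT1A1 lay below the dim line in both arrays and B4GALNT1 in 1. Their changes are therefore bounds, at least 3.77-fold for SULT1A1 and at least 6.17-fold for B4GALNT1. Both genes were below the negative control level in both arrays at 0 h, and against it the bounds were 1.04-fold and 2.11-fold. The SULT1A1 probe set may also pick up RNA of its near-identical paralogs, which was not tested.

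**Figure D1:**
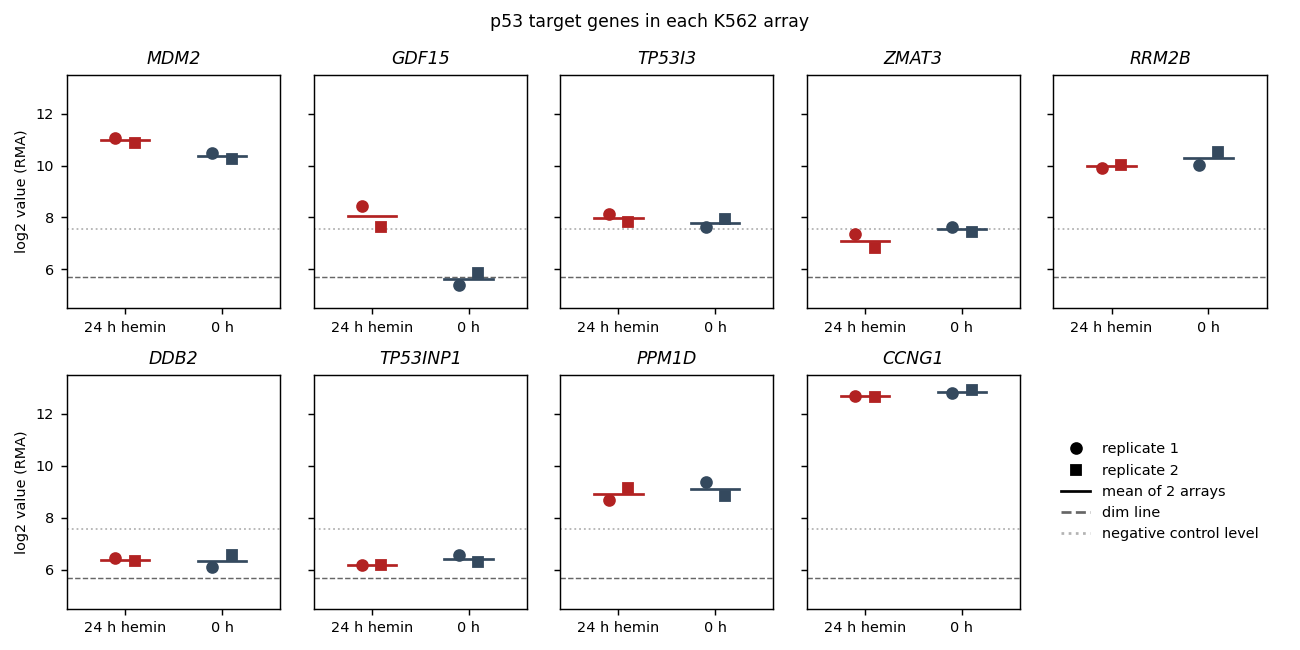
Log2 values (RMA, vertical axis) of the 9 p53 target genes with a named probe set in each array after 24 h of hemin (left in each panel) and at 0 h (right); circles and squares are replicates 1 and 2 and the bars their mean, with the dim line at 5.70 dashed and the negative control level at 7.56 dotted. GDF15 is at 8.43 and 7.65 at 24 h and near the dim line at 0 h, and in the other 8 genes the means at both times differ by less than 0.6.

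Among the genes that restrain p53 itself, MDM2 was at log2 values of 11.05 and 10.88 at 24 h, against 10.48 and 10.26 at 0 h. Both arrays at 24 h were above both at 0 h, by a margin that did not pass the test. The log2 fold change of MDM2 was 0.59 (standard error 0.31, 95% confidence interval -0.11 to 1.30, adjusted p = 0.47 from limma). MDM2 was well above both background lines before hemin. Whether the p53 match at its P2 promoter, printed above, has a part in that level was not tested. PPM1D, the phosphatase WIP1 that removes activating phosphates from p53 and from p38, had log2 values of 8.70 and 9.15 at 24 h, against 9.37 and 8.85 at 0 h. Its arrays overlapped between the time points, and the log2 fold change was -0.18 (95% confidence interval -0.95 to 0.59, adjusted p = 0.87 from limma). Its sign turned when 1 of the arrays was left out, between -0.44 and 0.08. CCNG1, cyclin G1, which recruits a phosphatase to MDM2, was at 12.70 and 12.66 at 24 h, against 12.79 and 12.93 at 0 h. Both CCNG1 arrays at 24 h were below both at 0 h by little, and the log2 fold change was -0.18 (95% confidence interval -0.87 to 0.51, adjusted p = 0.86 from limma).

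The genes of DNA repair and nucleotide supply gave no call. RRM2B, the p53-inducible subunit of ribonucleotide reductase that makes deoxynucleotides in cells outside S phase, had log2 values of 9.89 and 10.04 at 24 h, against 10.01 and 10.53 at 0 h. The values overlapped, and the log2 fold change was -0.31 (95% confidence interval -1.05 to 0.43, adjusted p = 0.75 from limma). DDB2, a DNA damage sensor of nucleotide excision repair, was at 6.46 and 6.33 at 24 h, against 6.12 and 6.58 at 0 h. All 4 DDB2 values lay between the dim line and the negative control level, so its presence rests on the lower line. The log2 fold change was 0.04 (95% confidence interval -0.69 to 0.77, adjusted p = 0.97 from limma), and took values between -0.19 and 0.27 when 1 array was left out. The p53 site of DDB2 printed above is the closest match to the consensus among the 4 shown.

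The genes that promote cell death or hold RNA and redox functions did not pass the test either. TP53I3, also called PIG3, a quinone oxidoreductase-like protein linked to reactive oxygen species and cell death, had log2 values of 8.14 and 7.82 at 24 h, against 7.65 and 7.96 at 0 h, which overlapped. Its log2 fold change was 0.18 (95% confidence interval -0.55 to 0.90, adjusted p = 0.87 from limma). TP53INP1, a nuclear stress protein that promotes p53 phosphorylation and autophagy, was at 6.17 and 6.19 at 24 h, against 6.55 and 6.30 at 0 h. Both arrays at 24 h were below both at 0 h by little, with a log2 fold change of -0.25 (95% confidence interval -0.95 to 0.45, adjusted p = 0.80 from limma), and like DDB2 it lay between the 2 background lines in every array. ZMAT3, a zinc finger protein that binds RNA and regulates splicing, was at 7.36 and 6.84 at 24 h, against 7.64 and 7.43 at 0 h. Both arrays at 24 h were below both at 0 h, and the log2 fold change was -0.43 (standard error 0.33, 95% confidence interval -1.18 to 0.31, adjusted p = 0.64 from limma), between -0.69 and -0.17 when 1 array was left out. ZMAT3 was above the dim line in all 4 arrays, and above the negative control level in 1 of the 2 at 0 h and in 0 of the 2 at 24 h.

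Of the 9 genes, 8 lay above the dim line in all 4 arrays and 5 above the negative control level in all 4, namely MDM2, TP53I3, RRM2B, PPM1D and CCNG1. Without GDF15 the other 8 genes had log2 fold changes of -0.43 to 0.59, and limma gave 0 of them an unadjusted p under 0.05, where 12.9% of all probe sets had one, 6.28% higher and 6.62% lower. Their 95% confidence intervals all included 0 and together ran from -1.18 to 1.30, which is the precision that 2 arrays per time point gave for these genes.

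**Figure D2:**
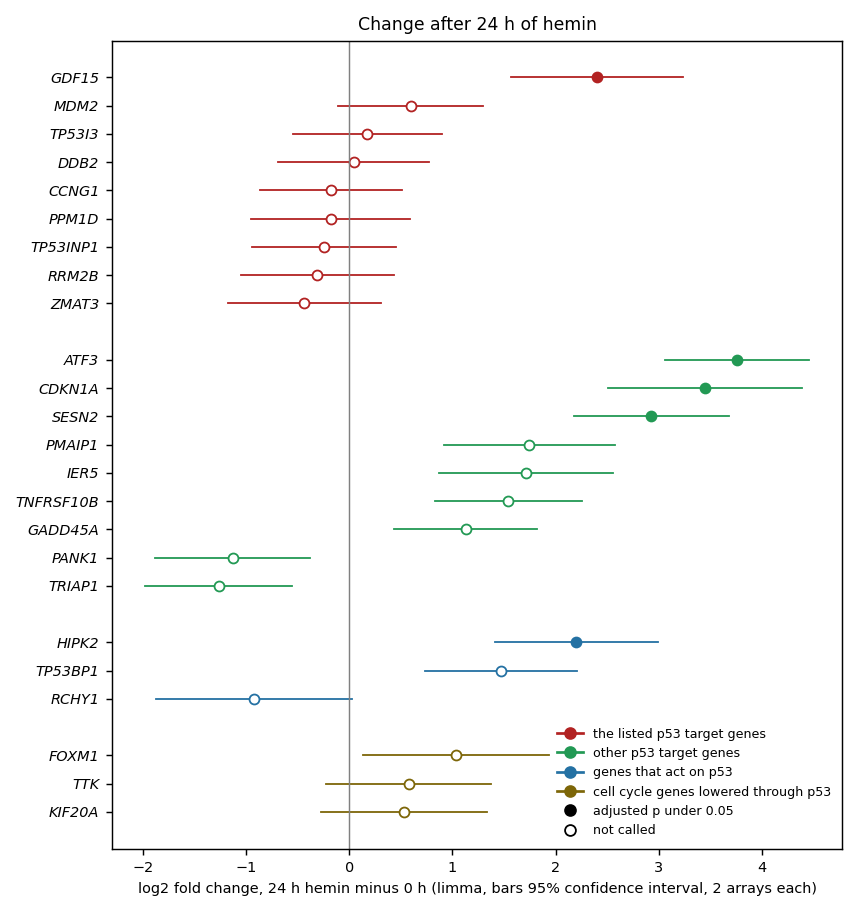
Log2 fold change between 24 h of hemin and 0 h with its 95% confidence interval from limma (horizontal axis, 2 arrays per time point) for the 9 p53 target genes and for the other named genes of the p53 programme; filled points had an adjusted p under 0.05. GDF15 is the only filled point among the 9, while ATF3, CDKN1A and SESN2 are filled among the other targets and HIPK2 among the genes that act on p53.

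Other p53 target genes were taken from 5 lists by role. Of their 66 genes, 59 were measured, 3 rose and 0 fell, and 14 stayed under the dim line in every array. The 3 that rose were 5.08% of those measured, where 0.823% of all probe sets rose, and the median log2 fold change of the 59 was -0.01. By role, 1 of 7 measured growth arrest genes, 0 of 17 cell death genes, 0 of 5 DNA repair genes, 1 of 11 metabolic and redox genes and 1 of 19 signalling and surface genes rose.
CDKN1A, the gene of the CDK inhibitor p21, had log2 values of 8.54 and 7.78 at 24 h, against 4.22 and 5.21 at 0 h. Both arrays at 0 h were below the dim line, so the change is at least 5.51-fold (at least 1.51-fold against the negative control level), with an adjusted p of 0.0056 from limma. SESN2, sestrin 2, a leucine sensor that restrains mTORC1, was at 10.98 and 10.46 at 24 h, against 7.93 and 7.65 at 0 h, and its log2 fold change was 2.93 ± 0.34 (standard error), with an adjusted p of 0.0039 from limma. It lay above both lines in every array. ATF3, a stress-induced transcription factor that p53 also activates, was at 9.34 and 9.57 at 24 h, against 5.72 and 5.67 at 0 h. ATF3 was at least 13.4-fold higher (at least 3.72-fold against the negative control level, adjusted p = 9.6e-04 from limma). The call of SESN2 was lost without replicate 1 (adjusted p = 0.058) or replicate 2 (adjusted p = 0.064) of 0 h and that of CDKN1A without replicate 1 of 0 h (adjusted p = 0.078), while ATF3 kept its call without each array.

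The 6 uncalled targets with the largest differences were PMAIP1, IER5, TNFRSF10B, GADD45A, TRIAP1 and PANK1. PMAIP1, which encodes the BH3-only protein NOXA, was at log2 values of 8.36 and 7.46 at 24 h, against 6.20 and 6.13 at 0 h (adjusted p = 0.068 from limma). IER5, an immediate early gene that acts on heat shock factor HSF1, was at 10.10 and 9.42 at 24 h, against 8.38 and 7.72 at 0 h (adjusted p = 0.075). TNFRSF10B, the TRAIL receptor DR5, was at 9.48 and 9.14 at 24 h, against 7.81 and 7.73 at 0 h (adjusted p = 0.062). In these 3 genes both arrays at 24 h were above both at 0 h, with log2 fold changes of 1.75, 1.71 and 1.54. PMAIP1 lay below the negative control level in both arrays at 0 h and in 1 at 24 h. Against that level its bound was 1.27-fold, while IER5 and TNFRSF10B lay above both lines in every array. GADD45A, which slows the cycle after damage, was at 11.95 and 12.08 at 24 h, against 10.83 and 10.95 at 0 h, a log2 fold change of 1.13 (adjusted p = 0.15). The other way, TRIAP1, an inhibitor of apoptosis that p53 activates, was at 7.40 and 7.60 at 24 h, against 8.92 and 8.61 at 0 h, a log2 fold change of -1.26 (adjusted p = 0.12). PANK1, pantothenate kinase 1 of coenzyme A synthesis, was at 6.86 and 7.34 at 24 h, against 8.06 and 8.41 at 0 h (log2 fold change -1.13, adjusted p = 0.18). At 24 h TRIAP1 lay below the negative control level in 1 array and PANK1 in both. Against that level their bounds were 2.27-fold and 1.59-fold.

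A list of 10 p53 targets that ATF4, CHOP or other stress factors are known to drive as well, drawn from the same 5 lists, held all 3 called genes. Of its 9 measured genes, 3 rose, against 0.823% of all probe sets, and 6 had an unadjusted p under 0.05 on the higher side, against 6.28% of all probe sets. Its median log2 fold change was 1.54, with values of -0.27 to 3.76, and both arrays at 24 h were above both at 0 h in 7 of the 9, as in 18.8% of all probe sets. The other 50 measured targets gave 0 calls, with a median of -0.15 and, before adjustment, 3 higher and 4 lower at a p under 0.05. GDF15 is known to be driven by ATF4 and CHOP too, although it was not on this list. Whether these factors acted on GDF15 or the listed genes in these cells was not tested. The list was chosen with earlier results of these arrays known, so the counts describe these genes and do not test them as a group.

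**Figure D3:**
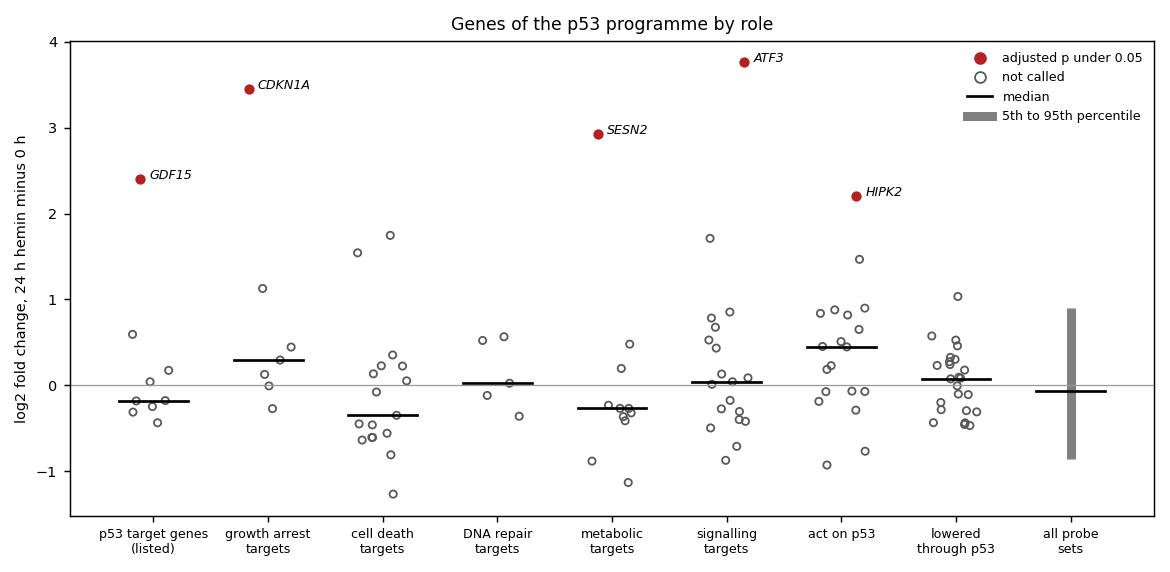
Log2 fold change between 24 h of hemin and 0 h (vertical axis) of each measured gene in the lists of the p53 programme, with red points for an adjusted p under 0.05, black lines for medians, and a grey bar for the 5th to 95th percentile of all probe sets, from -0.86 to 0.90. The medians of the 9 target genes, at -0.18, of the cell death targets, at -0.35, and of the metabolic targets, at -0.27, lie below 0, and the called genes GDF15, CDKN1A, SESN2, ATF3 and HIPK2 stand above the rest of their lists.

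Of 19 measured genes that act on p53, 1 rose and 0 fell, where 0.823% of all probe sets rose and 0.12% fell, and the single call can be read no further than its gene. The median log2 fold change of the 19 was 0.45. HIPK2, a kinase that phosphorylates p53 for cell death, had log2 values of 11.51 and 11.88 at 24 h, against 9.83 and 9.16 at 0 h. Both arrays at 24 h were above both at 0 h, and the log2 fold change was 2.20 ± 0.35 (standard error), with an adjusted p of 0.023 from limma. The call was lost without replicate 1 (adjusted p = 0.077) or replicate 2 (adjusted p = 0.14) of 0 h. TP53BP1, the repair factor 53BP1, was at 9.74 and 9.77 at 24 h, against 8.03 and 8.55 at 0 h, a log2 fold change of 1.47 (adjusted p = 0.080). RCHY1, the ubiquitin ligase PIRH2 that targets p53, was at 7.85 and 8.32 at 24 h, against 8.42 and 9.60 at 0 h (adjusted p = 0.40).
Of 24 cell cycle genes that p53 lowers through p21 and DREAM, limma called 0. Over all probe sets 0.823% were called higher and 0.12% lower. Before adjustment 1 was higher and 0 lower at a p under 0.05, where 6.28% of all probe sets were higher and 6.62% lower. The methods' ANOVA gave 0 of the 24 at its P of 0.05, where 859 of all 20893 probe sets were higher and 1071 lower. Their median log2 fold change was 0.08, with values of -0.47 to 1.03, and all 24 lay above the dim line in every array. FOXM1, a transcription factor of mitotic genes, had the largest difference, with log2 values of 11.61 and 11.16 at 24 h, against 10.86 and 9.83 at 0 h (log2 fold change 1.03, adjusted p = 0.30 from limma). TTK, a spindle checkpoint kinase, was at 13.08 and 12.89 at 24 h, against 12.02 and 12.80 at 0 h, and KIF20A, a mitotic kinesin, had a log2 fold change of 0.53 with overlapping arrays.

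**Figure D4:**
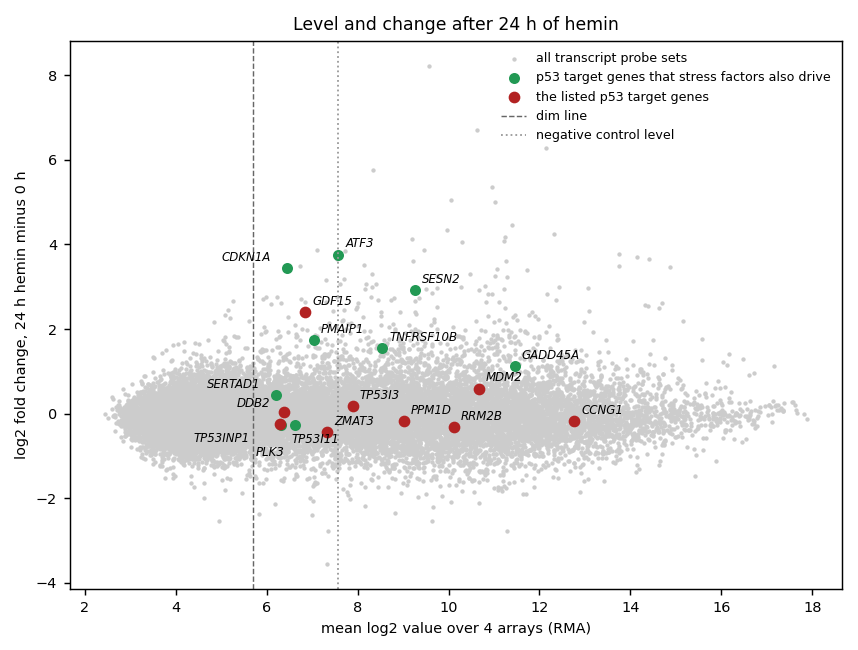
Log2 fold change between 24 h of hemin and 0 h (vertical axis) against the mean log2 value over the 4 arrays (horizontal axis) for all 20893 probe sets in grey, the 9 p53 target genes in red and the 9 measured p53 targets that stress factors also drive in green, with the dim line at 5.70 and the negative control level at 7.56. GDF15, at 2.40, and CDKN1A, at 3.44, have means between the 2 lines, whereas MDM2 and CCNG1 lie far to the right of both with changes of 0.59 and -0.18.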

How the data were processed

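RNA of K562 cells after 24 h in 50 µM hemin and at 0 h was hybridized to 4 Human Clariom S arrays. Each array's log2 value per probe set is the authors' deposited one, made with RMA in Affymetrix Expression Console (background correction, log2 and quantile normalization), and Partek served for their tests. Neither versions nor the array's genome build are given in the sources used here. From the 24351 rows, 2903 array control rows and 555 unmapped transcripts were left out. Gene symbols are those of GEO's platform annotation, checked against RefSeq gene identifiers: 17705 probe sets had 1 symbol, 0 had several and 3188 are unnamed here.

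The time points were compared with limma 3.58.1, run in R 4.3.3 by lmFit then eBayes with no covariate (two-sided, 24 h minus 0 h), with Benjamini-Hochberg adjustment over all 20893 transcript probe sets and a threshold of 0.05, and the test was checked on simulated data. Where an array of the dimmer time point lay below a background line, the change is also given as at least N-fold, counting values under the line as equal to it. The members and lists were chosen with earlier results of these data known. Besides the 9 measured genes, the text names the called genes of the 5 target lists, the 6 uncalled ones with the largest difference, the 3 largest differences of the lists of genes that act on p53 and of cell cycle genes, and the 3 genes nearest in pattern to GDF15. Tried instead were each array left out in turn, thresholds of 0.01 and 0.10, the methods' ANOVA, a replicate block, weights per array, robust eBayes with a trend, only named genes with 1 probe set each, only probe sets above the dim line, centring on medians and a further quantile normalization, and a filter at the negative control level was added after the data were seen. Promoter sequences are RefSeq's, of GRCh38.p14, searched by script in Python 3.11.15.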

Additional observations from a re-analysis of the deposited data

How the results depend on the processing

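GDF15 had a positive change under every alternative that tested it, and the other 8 p53 target genes gave no call at an adjusted p under 0.05 under any. DDB2 turned sign without replicate 1 of 24 h (-0.026) and without replicate 1 of 0 h (-0.186), and PPM1D without the same arrays (0.045 and 0.079). Over the arrays left out in turn, DDB2 ran from -0.186 to 0.271 and PPM1D from -0.441 to 0.079, while TP53I3 ran from 0.018 to 0.332, ZMAT3 from -0.695 to -0.175, RRM2B from -0.57 to -0.051, TP53INP1 from -0.373 to -0.119 and CCNG1 from -0.245 to -0.108, so the order of these genes by change is not fixed. The count of 1 called member was 0 after Benjamini-Hochberg adjustment of the methods' ANOVA, at an adjusted p under 0.01, and with a filter at the negative control level, which removes GDF15, and ran from 0 to 1 over the arrays left out. Of the 8 members above the dim line in every array, 5 lay above the negative control level.

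Over all probe sets, 197 calls became 546 with a trend and robust model, 495 with the filter at the negative control level, 1930 by the methods' ANOVA at its P of 0.05 and 0 after its adjustment, 77 at an adjusted p under 0.01, 418 at 0.10, and 27 to 392 without single arrays (27 without replicate 1 and 53 without replicate 2 of 0 h). The 3 other p53 targets became 5 with 1 probe set per gene, 7 with the trend and robust model, 6 with the filter at the negative control level (5 higher and 1 lower, TRIAP1), 8 by ANOVA (6 higher and 2 lower) and 0 after its adjustment, 6 at 0.10, and 1 to 6 without single arrays. The 3 stress-driven ones became 5, 6, 5 and 0 with 1 probe set per gene, the trend and robust model, ANOVA and its adjustment, 5 at 0.10, and 1 to 5 without single arrays. The 1 gene that acts on p53 became 2 with the trend and robust model, the filter at the negative control level and at 0.10, 5 by ANOVA (4 higher and 1 lower), 0 after its adjustment and at 0.01, and 0 to 1 without single arrays. With 1 array left at a time point, it is assumed to vary like the other. The filter at the negative control level removes CDKN1A, so the 6 other p53 targets called with it do not include that gene. The cause of these shifts in the counts was not tested.

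Replicate numbers are shared between the time points, but same-numbered arrays did not deviate together (r = -0.003 across probe sets). With only 2 pairs this cannot exclude a shared culture or processing, and whether the numbers mark pairs is not stated. With the replicate block, the calls numbered 429 over all probe sets, 1 among the members, 6 among the other p53 targets, 5 among the stress-driven ones, 2 among genes that act on p53 and 0 among the cell cycle genes.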
